A study of Mus musculus with 16 samples.

Results

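Interferons are secreted proteins that warn cells of infection. Type I interferons act through the receptor chains Ifnar1 and Ifnar2 and a complex with Stat2 and Irf9 that binds the interferon-stimulated response element (ISRE) in promoters, while interferon gamma acts through Ifngr1 and Ifngr2 and on promoters with a gamma-activated site (GAS). The genes they switch on include antiviral enzymes, chemokines that draw T cells, GTPases that attack pathogen vacuoles, and the machinery that cuts, carries and loads peptides onto major histocompatibility complex (MHC) class I, which nearly all cells, hepatocytes among them, show to CD8 T cells.

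Here 44 interferon-stimulated and MHC class I genes, listed by name, were followed in liver RNA. They were chosen with earlier results of these data known. A probe of the array matched 41 of them by its transcript accession, against 19096 genes named on the whole array. No probe was matched to Mx1, Mx2 or H2-D1, and Oas3 reached a signal well above background in 0 of 4 WT DEN livers and 1 of 4 in each other group, so 40 genes were tested. Each gene is given by its brightest probe.

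The data came from 16 male mice, 4 in each of 4 groups, with 1 Agilent Cy3 array per liver and RNA from regions without tumour. Wild-type (WT) mice were C57BL/6J. Knockout (KO) mice carried a null allele of Gadd45b, a stress-induced growth arrest gene, in a stock whose name adds another strain to C57BL/6 although the study also places it on C57BL/6J, so strain and genotype cannot be told apart. All 16 mice, controls included, had been given 90 mg/kg of the liver carcinogen diethylnitrosamine (DEN) when 5 weeks old, and were killed at 57 weeks. WT DEN and KO DEN mice then drank plain water, and WT DEN + PB and KO DEN + PB mice drank phenobarbital (PB), an activator of the nuclear receptor CAR and a liver tumour promoter, at 0.5 g/l from 7 weeks of age. The study asked how loss of Gadd45b changes the liver's response to PB.

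Levels are log2 processed signals minus the 75th percentile of the same array, so that 0 is the level of the probe at that percentile and a difference of 1 is a 2-fold change. Levels of different genes are not compared, since each probe has its own brightness. A gene was called where limma gave a Benjamini-Hochberg adjusted p under 0.05 over all 24455 probes tested and the fitted means differed by at least 1.5-fold. The share of spots well above background was 58.2% to 67.7% per array, and the 75th percentile lay between 137 and 294 signal units. Gadd45b was above background in 8 of 8 WT and 0 of 8 KO livers, and hepatocyte albumin (Alb) lay between 8.63 and 9.58 in all 16. Each of 4 slides carried 4 arrays, and the groups were spread over them except that KO DEN was missing from slide 2 and WT DEN from slide 4.

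Promoter sequences are shown first, since the ISRE and GAS are the promoter elements of interferon signalling introduced above. RefSeq promoters on GRCm38.p6 were found for 35 of the 44 genes. In the 250 bases before the start site, an exact GAAANNGAAA on either strand was found for 16 of the 35 (45.7%), against 3.46% of 27025 genes with a promoter. An exact TTCNNNGAA, which is its own reverse complement, was found for 8 (22.9%), against 8.13%. All 5 interferon-inducible GTPase genes with a promoter held an ISRE match, as did 6 of 12 antiviral effectors and 2 of 4 class I chains. The stretches below run 5′ to 3′ on the gene's own strand and hold every match with 20 bases on either side. Capitals mark the matches. Isg15, Ifit1 and Cxcl10 stand for the genes with ISRE letters, Tgtp1 has both kinds, Gbp2 was called below, Psmb8 has GAS letters, and B2m and H2-T23 are of the class I pathway.
Isg15, chr4:156200855-156200916, minus strand: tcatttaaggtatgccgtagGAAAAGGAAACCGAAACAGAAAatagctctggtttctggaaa
Ifit1, chr19:34640765-34640833, plus strand: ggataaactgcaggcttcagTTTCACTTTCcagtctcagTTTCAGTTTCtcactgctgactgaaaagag
Cxcl10, chr5:92349073-92349122, minus strand: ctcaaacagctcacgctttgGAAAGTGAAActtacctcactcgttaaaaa
Gbp2, chr3:142620584-142620633, plus strand: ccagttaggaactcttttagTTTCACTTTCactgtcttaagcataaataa
Tgtp1, chr11:48992294-48992354, minus strand: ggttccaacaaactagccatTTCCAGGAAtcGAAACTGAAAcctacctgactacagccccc
Psmb8, chr17:34198078-34198126, plus strand: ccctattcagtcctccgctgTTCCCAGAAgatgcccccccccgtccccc
B2m, chr2:122147528-122147577, plus strand: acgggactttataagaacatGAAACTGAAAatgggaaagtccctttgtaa
H2-T23, chr17:36032796-36032845, minus strand: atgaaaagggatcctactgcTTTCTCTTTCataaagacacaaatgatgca

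Oasl1, the gene with the most calls among the 40, had neither set of letters in its 250 bases, which says only that these exact letters are not in that window. Its last 100 bases before the start site are shown because, like Gbp2, it was called below.
Oasl1, chr5:114923140-114923239, plus strand: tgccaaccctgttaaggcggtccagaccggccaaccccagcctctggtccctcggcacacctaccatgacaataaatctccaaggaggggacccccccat

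Before the comparisons, the spread between mice of the same group needs to be seen. The within-group SD of the 40 genes had a median of 0.41 on the log2 scale, against 0.3 over all probes tested, with a median of 0.5 for the pair Isg15 and Usp18, 0.47 for the 13 antiviral effectors and 0.23 for the 3 class I chains. Ifi44 had the widest spread (SD 0.73) and H2-T23 the narrowest (0.15). Single livers carried much of it. In WT DEN + PB, replicate 4 was the highest of its group in 30 of the 40 genes and the lowest in 0, while over all probes it was highest in 32.7% and lowest in 24.3%. In KO DEN, replicate 2 was the highest in 32 of 40 (38.7% over all probes). In KO DEN + PB, replicate 3 was the highest in 22 and replicate 1 in 16, against 36.9% and 23.4% of all probes.

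The mean deviation of the antiviral effectors from their 16-array means shows the same livers. It was -0.15, 0.32, 0 and 1.03 in WT DEN + PB replicates 1 to 4, and 0.78, -0.18, 0.36 and -0.07 in KO DEN + PB. In KO DEN it was -0.56, 0.07, -0.48 and -0.66, and in WT DEN it lay between -0.33 and 0.09. WT DEN + PB replicate 4 and KO DEN + PB replicate 1 therefore stood highest, and KO DEN replicate 2 lay above the other KO DEN livers. Beside this, WT DEN + PB replicate 4 also had the highest deviations of its group for leukocyte markers (0.52, against 0.11 to 0.22 in the other 3 livers), stellate cell markers (0.89, against 0.23 to 0.28) and endothelial markers (0.57, against 0.25 to 0.33). Its Kupffer cell marker deviation was the lowest of the group (0.33, against 0.39 to 0.63). In KO DEN + PB the leukocyte deviation was -0.26, -0.27, -0.15 and -0.58 in replicates 1 to 4, so that of the high replicate 1 was close to that of replicate 2. Interferon gamma itself (Ifng) read -3.41 in KO DEN + PB replicate 3 and between -4.64 and -4.26 in the other 3. The part of these cells in the interferon genes was not tested. In whole liver, fewer cells of a type and less RNA per cell cannot be told apart.

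**Figure D1:**
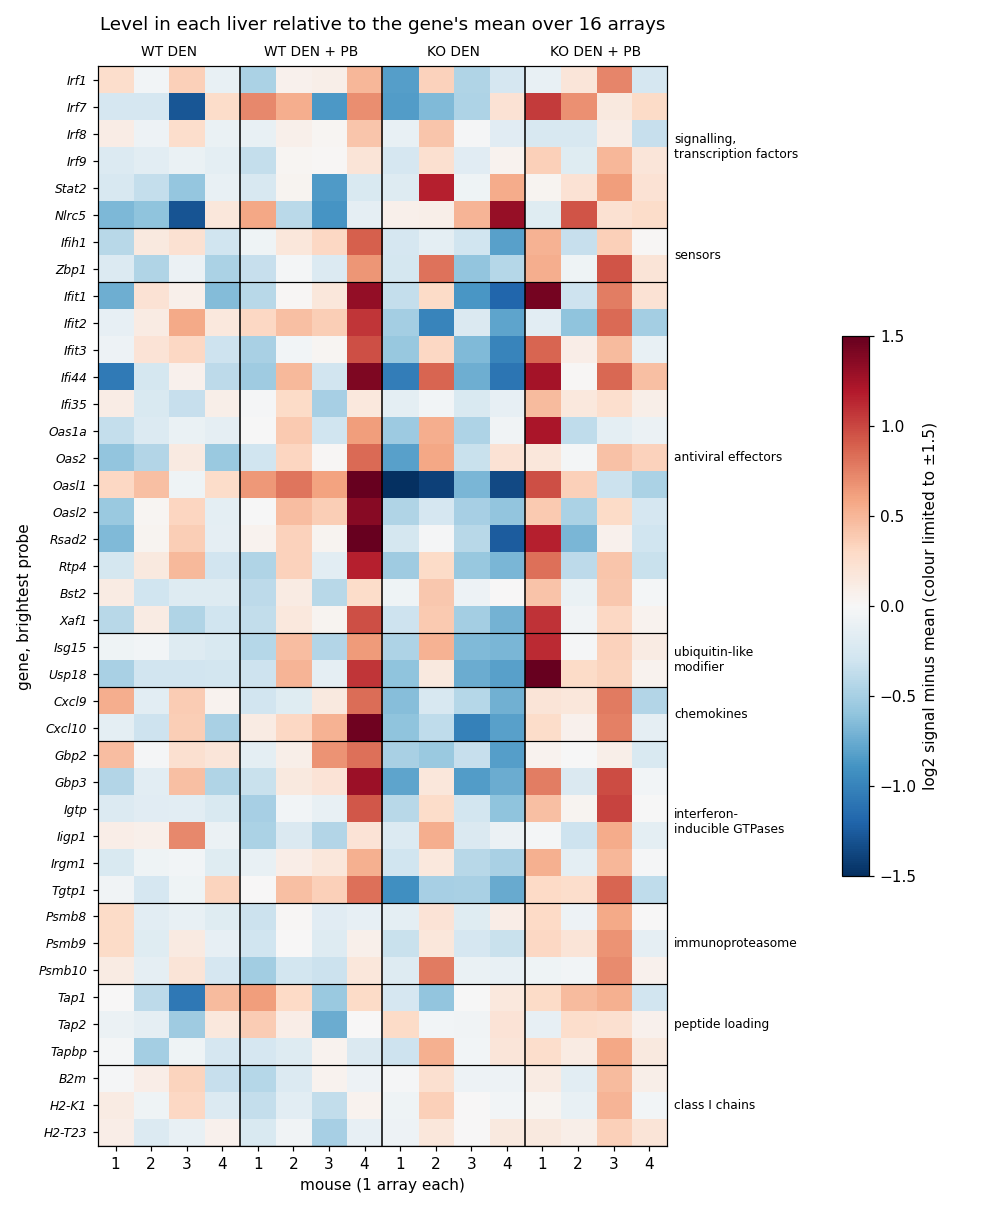
Heat map of 40 genes (rows, in blocks by role) in 16 livers (columns, replicates 1 to 4 of each group), coloured by the log2 signal minus the gene's mean over the 16 arrays, with the colour limited to ±1.5. WT DEN + PB replicate 4 and KO DEN + PB replicates 1 and 3 are red over most antiviral and GTPase rows, and the class I rows vary least.

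With the arrays scaled, PB in the KO livers gave the largest median shift of the whole group of genes, though only narrowly so with slide as a block. Of the 40, 37 had a fitted PB difference above 0, with a median of 0.46 on the log2 scale, while 50.1% of all probes were above 0 with a median of 0.001. Only Oasl1 was called, which is 1 of 40 where 1.72% of all probes were called in either direction and 1.05% were called higher. An unadjusted p under 0.05 was reached by 17 of the 40, all with higher means under PB, against 12.1% of all probes. In 5 of the 40 the 4 KO DEN + PB livers all lay above the 4 KO DEN livers, against 3.62% of all probes, and in 0 of 40 below.

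This shift was not the same on every slide, and single livers moved its size. KO DEN + PB against KO DEN on slide 1, which set replicate 4 against the high KO DEN replicate 2, left 13 of 40 genes above 0 with a median of -0.21. On slide 3 it was 30 of 40 (median 0.28) and on slide 4 it was 39 of 40 (median 0.81). With slide as a block, 36 of 40 were above 0 (median 0.39) and 8 had an unadjusted p under 0.05 by limma. The same fit gave a median of 0.34 and 9 such genes for PB in WT. With normexp background correction these numbers were 10 in KO and 0 in WT, and without scaling between arrays 7 and 6. Without that scaling the median was 0.17 in KO and 0.33 in WT, where all probes had medians of -0.295 and 0.087. Leaving out 1 array at a time kept between 32 and 37 genes above 0, but the number with an unadjusted p under 0.05 went down to 6 without KO DEN replicate 4 or without KO DEN + PB replicate 1, to 7 without KO DEN + PB replicate 3, to 9 without KO DEN replicate 3 and to 10 without KO DEN replicate 1.

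Oasl1 encodes an oligoadenylate synthetase-like protein that lacks synthetase activity and limits type I interferon production by restraining the translation of Irf7. It read 1.43, 1.57, 1.05 and 1.39 in WT DEN livers and 1.77, 1.92, 1.72 and 2.65 in WT DEN + PB. In KO DEN it read -0.52, -0.28, 0.43 and -0.24, and in KO DEN + PB 2.09, 1.48, 0.8 and 0.65. Every KO DEN liver lay below all 12 others, and KO DEN + PB overlapped both WT groups. PB raised it in KO by 1.41 ± 0.3 (SE, 2.65-fold, limma adjusted p = 0.0208), with p = 0.0286 by a two-sided exact permutation test, the smallest that 4 against 4 allows. Within slides the difference was 0.93, 2 and 0.7 on slides 1, 3 and 4. The call was lost when KO DEN replicate 1, 2 or 4 or KO DEN + PB replicate 2 was left out (adjusted p between 0.0606 and 0.0749).

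In WT, Oasl1 under PB differed by 0.65 ± 0.3 with an adjusted p of 0.659, although the groups did not overlap (exact permutation p = 0.0286). It was 1 gene of the 40 without overlap in that contrast, against 2.72% of all probes with the PB group higher. The difference between the effects in WT and in KO was -0.75 ± 0.42 (adjusted p = 0.907), so a larger PB effect in KO was not shown.

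Among the sensors and transcription factors, no gene passed. Irf7, the master factor of the type I response, read -0.8, -0.8, -1.83 and -0.27 in WT DEN and 0.18, 0, -1.4 and 0.15 in WT DEN + PB. It read -1.38, -1.2, -1 and -0.32 in KO DEN and 0.51, 0.14, -0.4 and -0.26 in KO DEN + PB. The groups overlapped in both genotypes, and the PB difference was 0.98 ± 0.37 in KO (adjusted p = 0.26). Irf1, which answers interferon gamma, read 4.22, 3.91, 4.31 and 3.84 in WT DEN, 3.48, 4.02, 4.04 and 4.45 in WT DEN + PB, 3.13, 4.3, 3.51 and 3.7 in KO DEN and 3.85, 4.14, 4.69 and 3.71 in KO DEN + PB. Its 4 groups overlapped. Ifih1, the sensor of long double-stranded RNA, differed by 0.51 ± 0.24 under PB in KO (adjusted p = 0.404), and its second, dimmer probe by 0.2 ± 0.28. Zbp1, which senses Z-form nucleic acid, differed by 0.52 without reaching an unadjusted p under 0.05. Irf8, Stat2 and Nlrc5 were the 3 genes below 0, at -0.21, -0.09 and -0.18.

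All 13 antiviral effectors tested had higher means under PB in KO, from 0.11 for Bst2, which tethers budding virus, to Oasl1, with a median of 0.53. Ifit1, which binds viral RNA caps, read -0.72, 0.23, 0.08 and -0.64 in WT DEN and -0.41, 0.03, 0.18 and 1.33 in WT DEN + PB. It read -0.35, 0.3, -0.86 and -1.18 in KO DEN and 1.44, -0.3, 0.77 and 0.23 in KO DEN + PB. The pairs of groups overlapped, and KO DEN + PB replicate 1 was the highest of the 16. Its PB difference in KO was 1.06 ± 0.42 (adjusted p = 0.282). Its relative Ifit3 differed by 0.82 ± 0.31 (adjusted p = 0.262), Ifi44 by 1.15 ± 0.46 (adjusted p = 0.291) and Ifi35 by 0.38 ± 0.17 (adjusted p = 0.385). Of these, Ifi35 alone had groups that did not overlap. Rsad2 (viperin), which makes a chain-terminating nucleotide, had 3 probes with PB differences in KO of 0.55, 0.51 and 0.09.

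Isg15, the ubiquitin-like protein attached to other proteins in interferon-treated cells, read 0.75, 0.77, 0.62 and 0.59 in WT DEN and 0.39, 1.28, 0.38 and 1.45 in WT DEN + PB. It read 0.35, 1.34, 0.15 and 0.13 in KO DEN and 1.93, 0.8, 1.16 and 0.94 in KO DEN + PB. KO DEN replicate 2 lay above 3 of the 4 KO DEN + PB livers, so the groups overlapped, and the PB difference in KO was 0.71 ± 0.31 (adjusted p = 0.356). Usp18, which removes Isg15 from its targets and damps the type I receptor, differed by 1.06 ± 0.33 in KO (adjusted p = 0.139) and by 0.62 ± 0.33 in WT.

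The chemokines Cxcl9 and Cxcl10 call T cells through the receptor Cxcr3. Cxcl9 read 2, 1.3, 1.83 and 1.51 in WT DEN and 1.17, 1.27, 1.6 and 2.29 in WT DEN + PB. In KO DEN it read 0.82, 1.21, 1.03 and 0.73, and in KO DEN + PB 1.65, 1.62, 2.23 and 1.01. All KO DEN livers lay below all WT DEN livers, and KO DEN + PB overlapped KO DEN only through its replicate 4. The PB difference in KO was 0.68 ± 0.27 (adjusted p = 0.277). For Cxcl10 it was 0.95 ± 0.28 (adjusted p = 0.108) with no overlap, and leaving out WT DEN + PB replicate 4, which adds to the shared estimate of spread, brought it past the threshold (adjusted p = 0.0394).

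Of the 6 interferon-inducible GTPases, 5 had an unadjusted p under 0.05 for PB in KO and 0 were called. Tgtp1, a GTPase of the immunity-related family, ranged from -0.37 to 0.06 in KO DEN and from 0.17 to 1.42 in KO DEN + PB, without overlap. Its PB difference in KO was 0.93 ± 0.23 (adjusted p = 0.0563), and it passed under quantile normalization (adjusted p = 0.0498) and when WT DEN + PB replicate 4 (adjusted p = 0.0473) or KO DEN + PB replicate 4 (adjusted p = 0.0145) was left out. A second, dimmer probe of Tgtp1 differed by -0.04 ± 0.29, so the 2 probes disagreed. Gbp3 differed by 0.92 ± 0.35 (adjusted p = 0.262), Igtp by 0.62 ± 0.28 (adjusted p = 0.381) and Irgm1 by 0.48 ± 0.19 (adjusted p = 0.292), while Iigp1 differed by 0.01. The second Irgm1 probe gave 0.55 ± 0.17 with no overlap between groups.

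The class I pathway had smaller median PB differences in KO than the antiviral effectors and GTPases. The 3 immunoproteasome subunits, which replace constitutive catalytic subunits and favour peptides for class I, had PB differences in KO between 0.07 and 0.44, and only Psmb9 had an unadjusted p under 0.05 (0.44 ± 0.18, adjusted p = 0.314). Psmb8 read 3.42, 2.98, 3.02 and 2.96 in WT DEN, 2.81, 3.15, 2.97 and 3.01 in WT DEN + PB, 2.99, 3.34, 2.96 and 3.23 in KO DEN and 3.43, 3.06, 3.71 and 3.14 in KO DEN + PB. Its 4 groups overlapped. Tap1, a chain of the peptide transporter into the endoplasmic reticulum, read -1.02, -1.42, -2.1 and -0.55 in WT DEN, -0.4, -0.73, -1.59 and -0.74 in WT DEN + PB, -1.28, -1.62, -1.03 and -0.87 in KO DEN and -0.74, -0.55, -0.5 and -1.31 in KO DEN + PB. These groups overlapped as well, and WT DEN replicate 3 was the lowest liver for Tap1 as it was for Irf7.

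For the 3 class I chains tested, PB differences in KO lay between 0.03 and 0.13. H2-K1, a classical heavy chain, read 8.2, 8.02, 8.39 and 7.88 in WT DEN and 7.72, 7.92, 7.71 and 8.13 in WT DEN + PB. It read 8.02, 8.44, 8.08 and 8.04 in KO DEN and 8.12, 7.97, 8.59 and 8.04 in KO DEN + PB. B2m, the light chain, read 7.12, 7.24, 7.47 and 6.8 in WT DEN, 6.71, 6.94, 7.2 and 7.06 in WT DEN + PB, 7.12, 7.38, 7.07 and 7.07 in KO DEN and 7.26, 6.98, 7.62 and 7.23 in KO DEN + PB. All 4 groups overlapped for both genes. Their PB differences in KO were 0.03 ± 0.17 and 0.11 ± 0.17, and those of the non-classical chain H2-T23 0.13 in KO and -0.18 in WT. Other probes of H2-K1 gave -0.09 and -0.14 in KO.

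**Figure D2:**
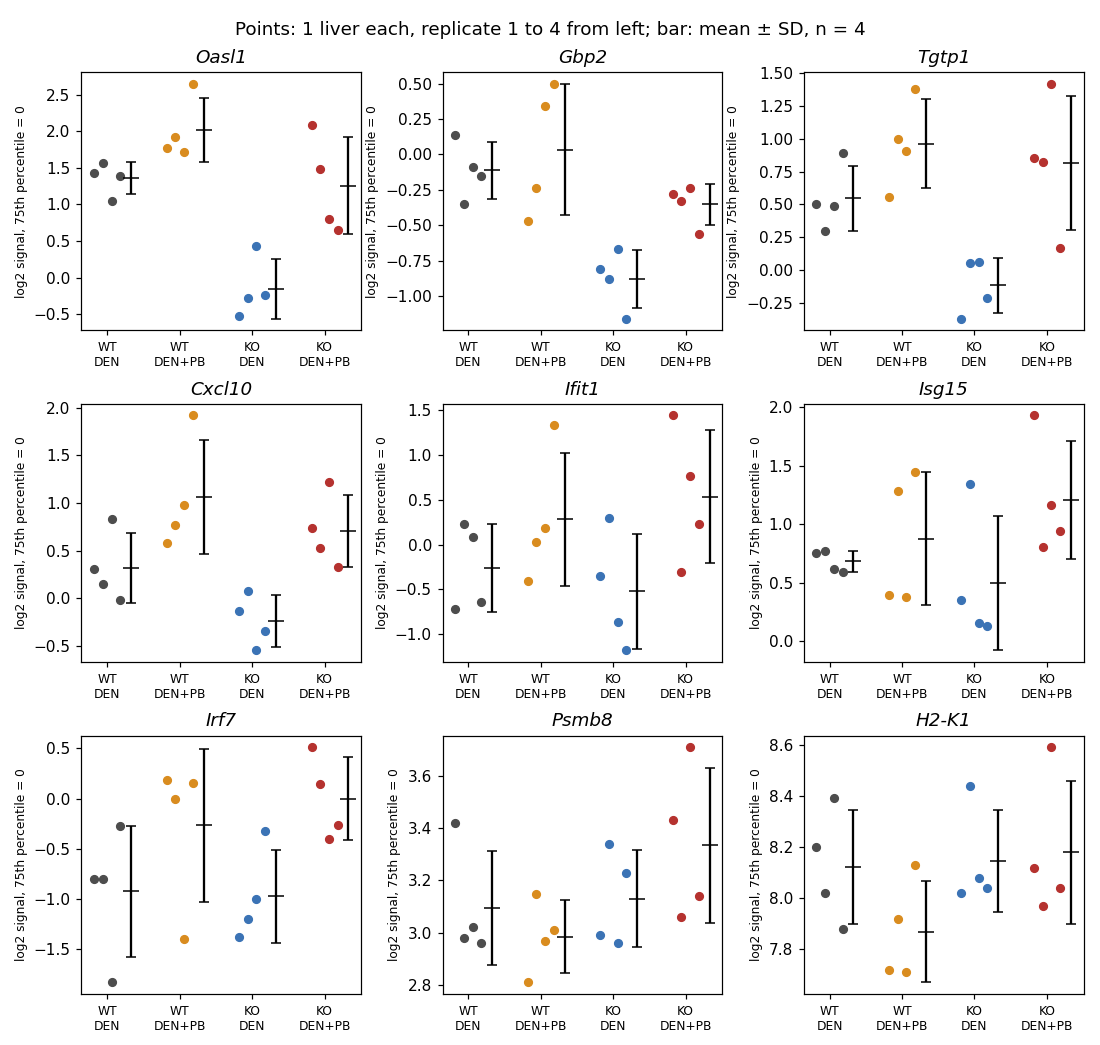
Log2 signal (0 is the array's 75th percentile) of 9 genes in the 16 livers, with points for replicates 1 to 4 from left to right in each group and bars for the mean ± SD (n = 4); each panel has its own vertical axis. Oasl1 in KO DEN lies below all other groups, while Ifit1, Isg15, Irf7, Psmb8 and H2-K1 overlap between groups.

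In WT livers, the same contrast called 0 of the 40 genes by limma, where 0.667% of all probes were called. An unadjusted p under 0.05 was reached by 3 (Oasl1, Oasl2 and Cxcl10), against 7.29% of all probes. Fitted differences were above 0 for 31 of 40, with a median of 0.23, against 47.2% of all probes and a median of -0.015. Without WT DEN + PB replicate 4 the count above 0 was 23 of 40, the lowest when any 1 array was left out, the median was 0.07 and 1 gene had an unadjusted p under 0.05. That number was 7 without WT DEN + PB replicate 1, 5 without its replicate 3, 1 without WT DEN replicate 1 and 9 with slide as a block. Within slides the counts above 0 were 27 (slide 1), 38 (slide 2, which held that liver) and 10 (slide 3) of 40. Oasl2, an active oligoadenylate synthetase, differed by 0.64 ± 0.27 (adjusted p = 0.589) and Cxcl10 by 0.75 ± 0.28 (adjusted p = 0.449), and both overlapped between groups. All 13 antiviral effectors were above 0 (median 0.46), whereas all 3 immunoproteasome subunits (-0.22 to -0.11) and all 3 class I chains (-0.25 to -0.18) were below it, each with an unadjusted p over 0.05.

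The test of whether PB acted differently in WT and KO called 0 of 40 genes, and 0.00818% of all probes. An unadjusted p under 0.05 was reached by Psmb9 alone (-0.58 ± 0.26, WT effect minus KO effect, adjusted p = 0.795), against 6.03% of all probes. The fitted difference was below 0 for 32 of the 40, with a median of -0.29, against a share above 0 of 46.6% over all probes. With slide as a block 16 genes were above 0 in place of 8, and without WT DEN + PB replicate 4 there were 5. The median was -0.19 without WT DEN + PB replicate 1 or 3, -0.18 without KO DEN + PB replicate 1 and -0.17 without its replicate 3, and 4 genes had an unadjusted p under 0.05 without replicate 4 of either PB group.

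**Figure D3:**
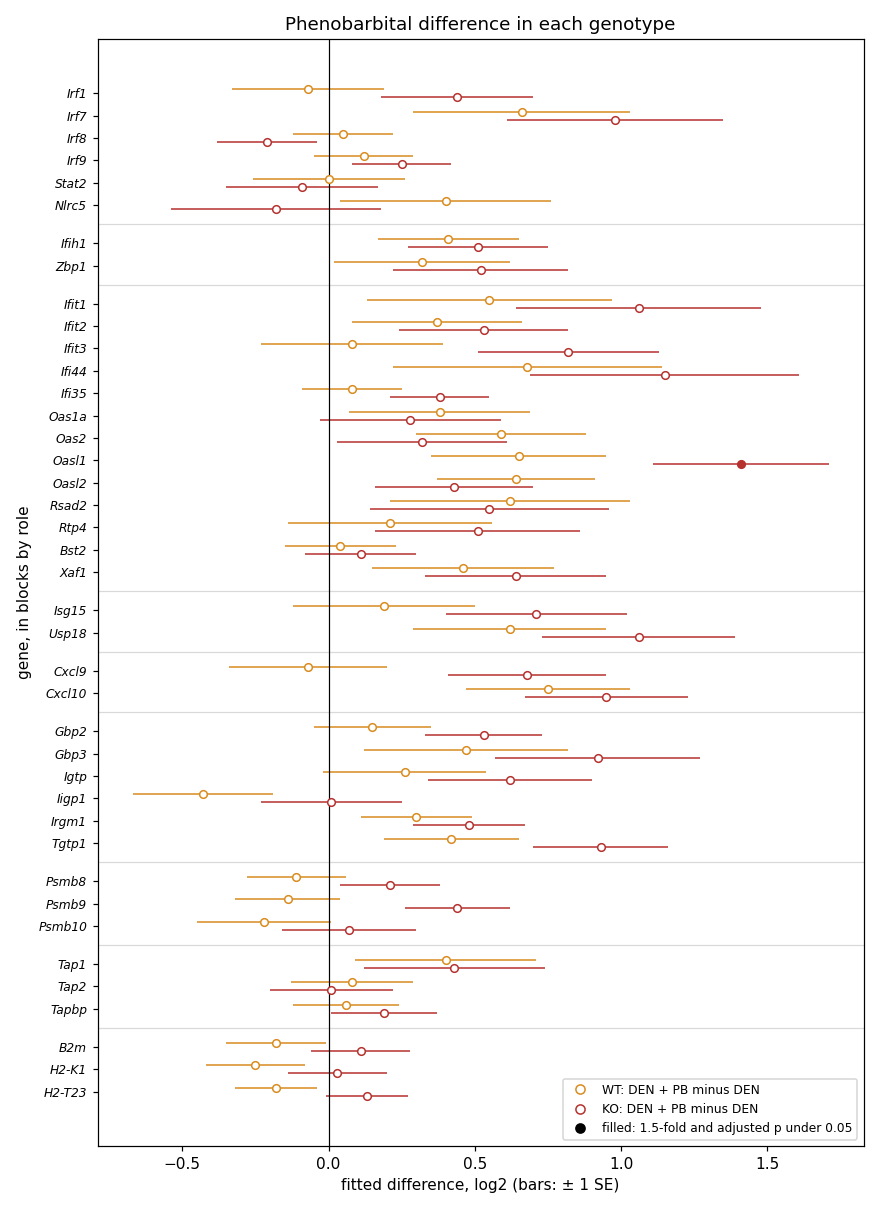
Fitted PB difference (DEN + PB minus DEN, log2, bars ± 1 SE) of 40 genes in blocks by role, orange for WT and red for KO, with filled points for called genes. Oasl1 in KO is the only filled point, and the class I chains at the bottom lie within 0.25 of 0 in both genotypes.

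The genotype contrast under DEN alone gave 2 calls among the 40, both lower in KO (Oasl1 and Gbp2), where 3.07% of all probes were called in either direction and 1.41% lower. It shares the KO DEN livers with the PB contrast in KO and the WT DEN livers with the PB contrast in WT, so a low KO DEN group enters both. Fitted differences were below 0 for 25 of the 40 with a median of -0.08, while all probes had a median of 0, and 7 of the 40 had an unadjusted p under 0.05, against 20.3% of all probes. Nlrc5 is among these 7 and met the signal filter only through KO DEN. In 5 of the 40 (Oasl1, Gbp2, Tgtp1, Ifit2 and Cxcl9) the 4 KO livers all lay below the 4 WT livers, against 5.42% of all probes, and in 0 of 40 above. Without the high KO DEN replicate 2 the median was -0.27 with 10 genes above 0, and without KO DEN replicate 1, 3 or 4 it was -0.03, -0.05 or -0.04. With slide as a block 21 of the 40 were above 0 and 0 were called.

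Oasl1 fell in KO by 1.51 ± 0.3 on the log2 scale (limma adjusted p = 0.0134, exact permutation p = 0.0286). The call was kept in each of the 16 fits that left out 1 array (adjusted p between 0.00557 and 0.0437). Within slides 1 and 3 the difference was -1.71 and -1.57, and with slide as a block it was -1.18 with an adjusted p of 0.0642. Gbp2, a guanylate-binding protein that coats pathogen vacuoles, read 0.14, -0.35, -0.09 and -0.15 in WT DEN and -0.47, -0.24, 0.34 and 0.5 in WT DEN + PB. It read -0.81, -0.88, -0.67 and -1.16 in KO DEN and -0.28, -0.33, -0.24 and -0.56 in KO DEN + PB. The KO DEN livers lay below all 12 others. Gbp2 fell in KO under DEN by 0.76 ± 0.2 on the log2 scale (adjusted p = 0.0494). That call was lost in 12 of the 16 fits that left out 1 array (adjusted p between 0.0528 and 0.137) and was kept only without WT DEN replicate 2 or WT DEN + PB replicate 1, 3 or 4. Within slides 1 and 3 the difference was -1.02 and -0.71.

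Ifit2 differed by -0.81 ± 0.29 (adjusted p = 0.125), Cxcl9 by -0.71 ± 0.27 (adjusted p = 0.144) and Tgtp1 by -0.66 ± 0.23 (adjusted p = 0.127). The second probe of Tgtp1 gave 0.3 ± 0.29. Differences above 0 were found for Stat2, a transcription factor of the type I pathway, at 0.69 ± 0.26 (adjusted p = 0.153), and for Nlrc5, the transactivator of class I genes, at 1.1 ± 0.36 (adjusted p = 0.1). With normexp background correction the Nlrc5 difference turned to -0.36. Nlrc5 exceeded background clearly in 4 of 4 KO DEN livers and in 2 of 4 livers of each other group. It was tested only through KO DEN, the group in which it read higher, so the filter and this difference are not independent. All 6 GTPases were below 0 (median -0.3), and all 3 class I chains lay between 0 and 0.11.

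Under DEN + PB, KO against WT called 0 of the 40, where 6.74% of all probes were called. An unadjusted p under 0.05 was reached by 5 of the 40, against 23% of all probes. The median was 0.23 with 29 above 0, against a median of 0.053 and 55.8% over all probes. The median was 0.08 without KO DEN + PB replicate 1, 0.09 without WT DEN + PB replicate 1, 0.1 without WT DEN + PB replicate 3 and 0.14 without KO DEN + PB replicate 3, with 23 to 25 genes above 0. Without WT DEN + PB replicate 4 it was 0.34 with 31 above 0. Within slides 1 to 4 the counts above 0 were 13, 17, 28 and 37 of 40. Oasl1 differed by -0.76 ± 0.3 (adjusted p = 0.14), with an adjusted p of 0.0332 without KO DEN + PB replicate 1. Ifit2 differed by -0.65 ± 0.29 (adjusted p = 0.184), with an adjusted p of 0.025 without KO DEN + PB replicate 3. Stat2 differed by 0.59 ± 0.26 (adjusted p = 0.192).

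In this contrast 2 of the 40 genes had 4 KO livers above all 4 WT livers, against 7.87% of all probes. H2-T23 ranged from 6.23 to 6.68 in WT DEN + PB and from 6.82 to 7.09 in KO DEN + PB, a difference of 0.42 ± 0.14 (adjusted p = 0.0734). Tapbp (tapasin), which bridges class I to the transporter, ranged from 4.05 to 4.36 in WT and from 4.43 to 4.89 in KO, a difference of 0.43 ± 0.18 (adjusted p = 0.17). A second, dimmer Tapbp probe gave 0.14 ± 0.26 with overlapping groups. The other class I chains differed by 0.31 (H2-K1) and 0.3 (B2m), and the immunoproteasome subunits by 0.35 to 0.4. Irf8, a factor of myeloid and B cells, had probes that differed by -0.28 ± 0.17 and -0.71 ± 0.21 (adjusted p = 0.057 for the second).

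**Figure D4:**
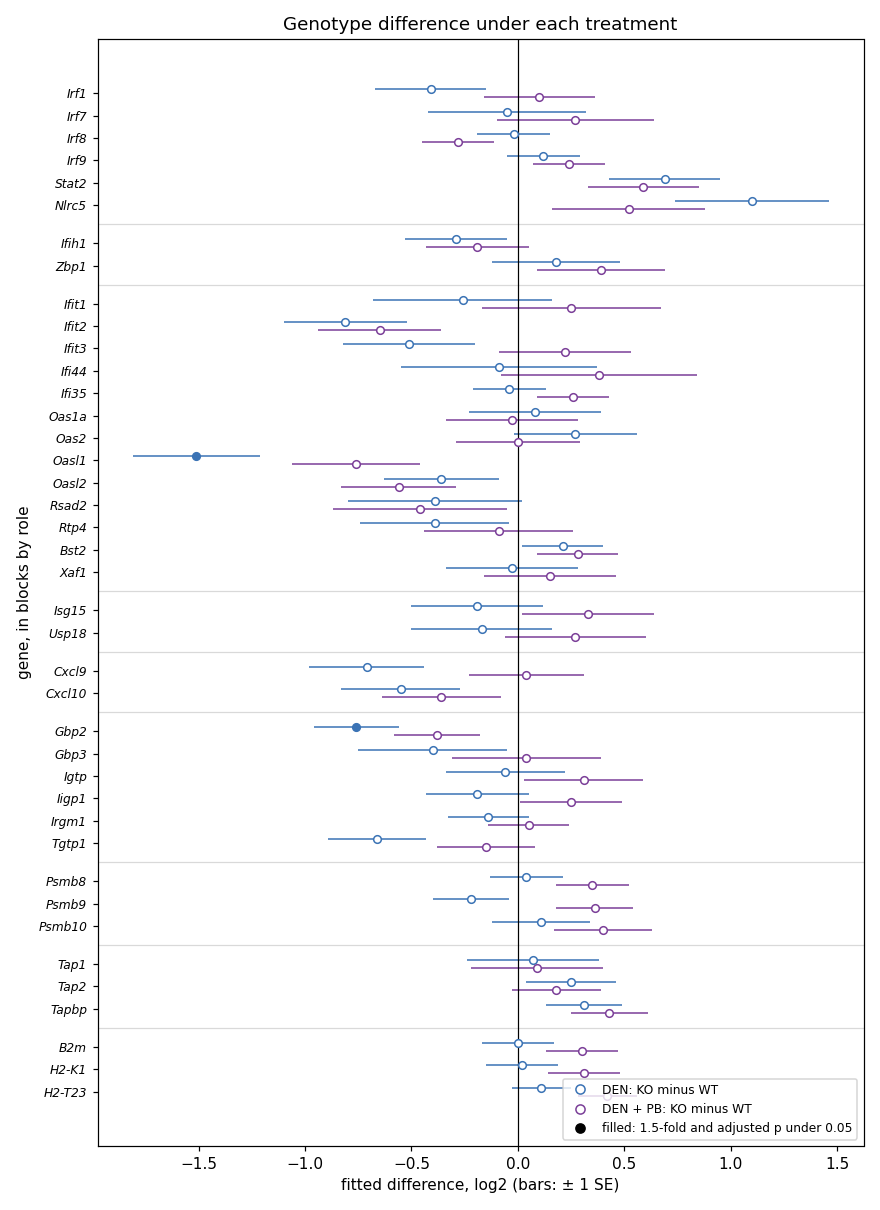
Fitted genotype difference (KO minus WT, log2, bars ± 1 SE) of 40 genes in blocks by role, blue under DEN and purple under DEN + PB, with filled points for called genes. Oasl1 and Gbp2 under DEN are the filled points, and under DEN + PB the immunoproteasome, loading and class I genes lie to the right of 0.

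MHC class II genes are normally expressed by professional antigen-presenting cells. Under DEN + PB, 4 of 7 class II genes tested were called lower in KO (median -0.7), where 4.61% of all probes were called lower, and the other 3 did not pass. H2-Aa, a class II alpha chain, ranged from -0.14 to 0 in WT DEN + PB and from -1.63 to -1.01 in KO DEN + PB, so the groups stood apart. It fell by 1.2 ± 0.21 on the log2 scale (adjusted p = 0.00304), the invariant chain Cd74 by 0.7 ± 0.19 (adjusted p = 0.0331), H2-DMa by 1.17 ± 0.23 (adjusted p = 0.00515) and H2-Oa by 1.14 ± 0.27 (adjusted p = 0.016). Under DEN alone, 0 of these 7 were called and 2 had an unadjusted p under 0.05, with 5 below 0 and 2 above. PB called 0 of the 7 in WT and 0 in KO, where 0.667% and 1.72% of all probes were called. All 7 were above 0 for PB in WT (0.14 to 0.38) and below 0 for PB in KO (-1.04 to -0.02). Whether class II and class I genes differed in their response to genotype was not tested.

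Markers of several cell types other than hepatocytes were also called lower in KO, where 1.41% of all probes were called lower under DEN and 4.61% under DEN + PB. Of 7 hepatocyte markers, 0 were called under DEN (median -0.03). Under DEN + PB, 1 was called higher in KO and 6 were above 0 (median 0.25), where 6.74% of all probes were called in either direction. Of 6 markers of Kupffer cells, the resident macrophages, 3 were called lower under DEN and 5 under DEN + PB, and of 13 leukocyte markers tested, 3 and 5. Of 6 endothelial markers, 2 were called lower in each contrast. Of 4 cholangiocyte markers and 4 stellate cell markers, 0 were called under DEN, and 3 and 2 were called lower under DEN + PB. PB in WT called 2 of the 4 cholangiocyte markers higher (median 0.9), where 0.667% of all probes were called in either direction. PB in KO called 0 of them (median -0.18), so the genotype difference under DEN + PB includes a rise in WT. Sums of linear levels (1 is the array's 75th percentile) rest mostly on the brightest probes of a list and do not speak for each marker. The largest terms were Csf1r for leukocytes, Clec4g for endothelium, Sox9 for cholangiocytes and Dcn for stellate cells. For the Kupffer list the sums were 52.8 to 217 in WT DEN and 68.2 to 79.6 in WT DEN + PB. They were 36 to 51.4 in KO DEN and 26.6 to 58.4 in KO DEN + PB. The highest sum, 217, was WT DEN replicate 3, where Marco read 6.49 and Cd5l 6.45, and the genotypes overlapped between 52.8 and 58.4. Marco read 4.92 in KO DEN + PB replicate 2 and 1.83 to 2.93 in replicates 1, 3 and 4. It was the 1 Kupffer marker above 0 for KO against WT under DEN + PB (0.22). For the 16 leukocyte markers the sums were 6.73 to 9.76, 7.43 to 9.58, 4.61 to 5.84 and 3.52 to 4.59 in the same order, without overlap between genotypes. For the endothelial list they were 38 to 47.7, 35.9 to 42.8, 18.7 to 32 and 18.8 to 22.3, again without overlap. The cholangiocyte sums (1.77 to 2.68, 1.79 to 2.66, 1.59 to 3.81 and 1.45 to 1.7) and the stellate sums (58.1 to 79.3, 62.6 to 78.4, 44.9 to 61 and 40.6 to 50.9) overlapped between genotypes under DEN and not under DEN + PB. Under DEN + PB the macrophage gene Cd68 fell in KO by 1.77 ± 0.2, the Kupffer lectin Clec4f by 1.17 ± 0.2 and the pan-leukocyte Ptprc by 1.14 ± 0.27 (adjusted p = 0.00014, 0.00203 and 0.0182). The T cell genes Cd3e and Cd8a and the cytotoxic gene Nkg7 were not called, with differences of 0.37, 0.62 and 0.04. The part of these cells in the values of Oasl1, Gbp2 and the class II genes was not tested.

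**Figure D5:**
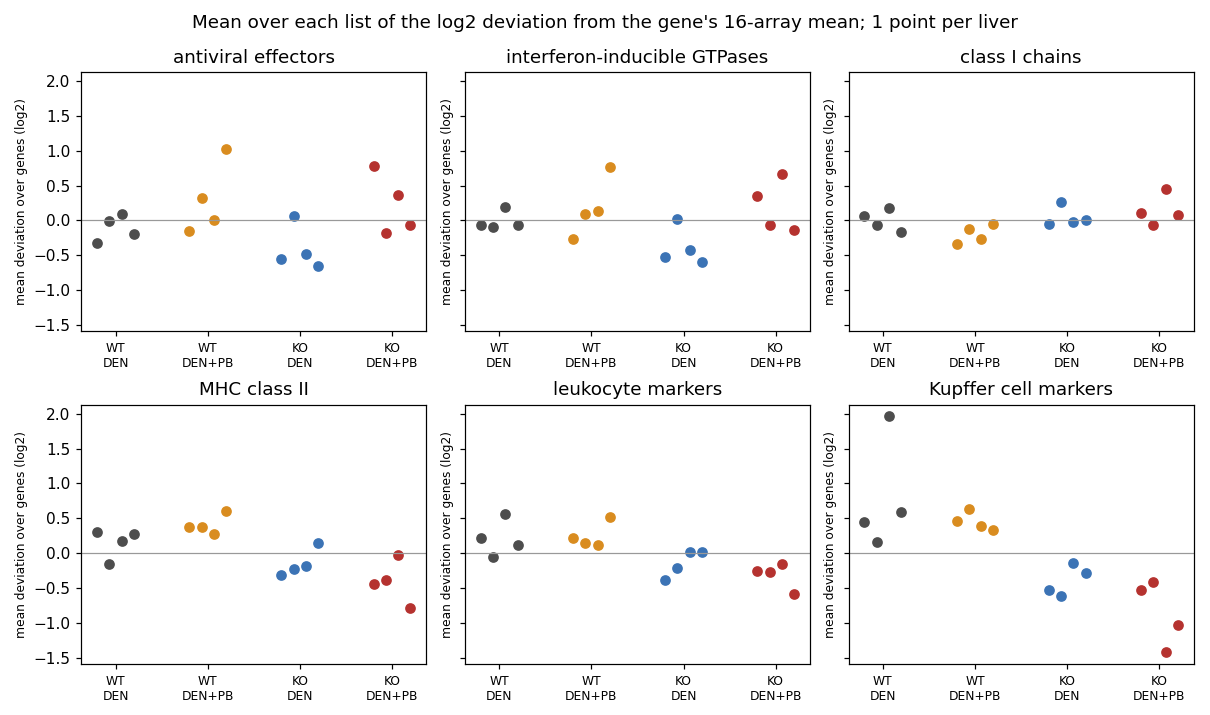
Mean log2 deviation from the 16-array mean over the genes of 6 lists, with 1 point per liver and replicates 1 to 4 from left to right. Antiviral effectors and GTPases are high in single livers of both PB groups, while Kupffer cell markers lie below 0 in all 8 KO livers and above 0 in all 8 WT livers.

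Further genes of the pathway were followed in 6 lists of 95 genes, of which 83 had a probe and 74 were tested. PB called 0 of 74 in WT (4 with an unadjusted p under 0.05 by limma) and 2 in KO, where 1.05% of all probes were called higher. Both were guanylate-binding proteins and both were higher. Gbp7 ranged from -1.39 to -0.8 in KO DEN and from -0.46 to -0.3 in KO DEN + PB and rose by 0.77 ± 0.15 (adjusted p = 0.0149), and Gbp6 rose by 1.18 ± 0.27 (adjusted p = 0.037). The interaction called 0 of 74, with an unadjusted p under 0.05 for 2. KO against WT called 3 of 74 under DEN (4.05%) and 7 under DEN + PB (9.46%), all lower, where 1.41% and 4.61% of all probes were called lower. Of the 7, 4 were the class II genes above. The others were Epsti1, Tlr7 and Ifi205, called in both contrasts, but Ifi205 met the signal filter only through the WT groups.

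Epsti1, an interferon-response gene named for epithelial-stromal interaction, did not overlap between genotypes. It ranged from -2.03 to -1.13 over the 8 WT livers and from -3.72 to -3.18 over the 8 KO livers, and fell in KO by 1.62 ± 0.19 under DEN and 1.68 ± 0.19 under DEN + PB (adjusted p = 0.000276 and 0.000156). Its PB differences were -0.07 in WT and -0.12 in KO. Tlr7, the endosomal sensor of single-stranded RNA, fell by 0.96 ± 0.22 and 1.25 ± 0.22. Ifi205 exceeded background clearly in 8 of 8 WT livers but in 1 of 4 KO DEN and 2 of 4 KO DEN + PB livers. It was tested only because it was high in WT, so the filter and its calls are not independent.

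Of the 12 receptor and signalling genes tested, 0 were called in any contrast. For KO against WT, 3.07% of all probes were called under DEN and 6.74% under DEN + PB. In the latter contrast 5 of the 12 had an unadjusted p under 0.05 by limma, against 23% of all probes. Ifnar1 ranged from 0.82 to 1.5 over all 16 livers. Ifngr1 differed by -0.55 ± 0.19 under PB in KO (adjusted p = 0.179), the opposite sign to most of the 40 genes. All 4 KO DEN + PB livers (2.67 to 2.91) lay below all 4 KO DEN livers (3.09 to 3.92), as for 3.8% of all probes. Of the 12 genes, 8 were above 0 for PB in KO and 4 below, with a median of 0.16. Of 5 interferon genes with a probe only Ifng met the signal filter, so only it was tested.

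The promoter letters divided the tested genes little. Under PB in KO, the 15 tested genes with an exact ISRE match had a median of 0.55 and the 18 with a promoter but no match a median of 0.43. In WT the medians were 0.26 and 0.1, and those of the genotype difference under DEN were -0.19 and -0.04. These are descriptions of genes that share the same 16 livers.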

How the data were processed

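Liver RNA of 16 mice was hybridised to Agilent 1-colour whole mouse genome arrays. The deposited scanner files, written by Feature Extraction 12.0.3.1 (version 12 in the submitters' processing notes), hold a processed intensity per spot, which the authors' software corrected for background without scaling between arrays. The authors also deposited a table of these intensities for the whole series, equal to the mean over spots of a probe to within 5e-04 percent. The study's own normalization was not given in the sources used here.

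Control spots and outlier spots (71 to 122 per array) were left out, repeat spots were averaged per probe, and log2 intensity minus the array's 75th percentile was used. A probe needed a signal well above background in all 4 livers of some group to be tested (24455 of 41174 probes). Transcript accessions gave 28223 probes (68.5%) a symbol through the RefSeq table of GRCm38.p6. The array was designed on mm9, so only promoter sequences carry coordinates. A probe of a gene with close copies (class I heavy chains, Tgtp, Ifit3, Oas1) may read more than its named gene.

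limma 3.58.1 in R 4.3.3 fitted 4 group means over 16 arrays, tested on simulated data first. Single genes were also tested by two-sided exact permutation over 70 assignments. The number of arrays limits the precision, and all p-values measure the spread between mice. The alternatives were quantile normalization, normexp (on the median signal and local background, offset 50), no filter, the series table, slide or replicate number as a block, only the arrays compared, no moderation, no fold threshold, any probe of a gene, and each array left out. Values per array were to be given for called genes and 9 others (Isg15, Ifit1, Irf7, Irf1, Cxcl9, Psmb8, Tap1, H2-K1 and B2m), statistics for genes with an unadjusted p under 0.05, and in the wider lists Ifnar1, Ifngr1, 7 cell markers and up to 3 called genes per direction; second probes and genes named for being high, low or alone in a count were added after their values were seen. A gene of the wider lists that the rule names is not reported here. The genes, lists and tests were chosen with earlier results of these data known.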

Additional observations from a re-analysis of the deposited data

Results flagged for a closer look

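In 164 sets of 4 livers (41 genes in 4 groups), a liver was marked where its distance to the nearest of the other 3, as a share of the group's range, passed Dixon's critical value. Chance marks about 1 set in 20, and 9 were marked. Of these, 5 were the same liver, KO DEN replicate 2, which read 3.55 for Rtp4 (others 2.58 to 2.74), 6.31 for Bst2 (5.84 to 5.92), 1.09 for Gbp3 (0.08 to 0.17), 5.28 for Psmb10 (4.3 to 4.4) and 8.44 for H2-K1 (8.02 to 8.08). KO DEN + PB replicate 3 read 5.2 for Psmb10 (others 4.43 to 4.56). WT DEN replicate 1 read 3.42 for Psmb8 (others 2.96 to 3.02) and 0.06 for Usp18, below the others by a small amount (0.25 to 0.26). WT DEN + PB replicate 3 read -1.4 for Irf7, below the other 3 (0 to 0.18).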

How the results depend on the processing

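The counts of called genes rest on few values near the threshold. Under PB in KO, 1 gene was called, against 2 with quantile normalization and 0 with normexp, no filter, the series table without scaling, only the arrays compared or no moderation; leaving out 1 array gave 0 to 3. For KO against WT under DEN, 2 were called, against 1 with no filter, only the arrays compared or no moderation, and 0 with normexp, the series table or slide as a block; leaving out 1 array gave 1 to 2. Under DEN + PB that range was 0 to 1. PB in WT and the interaction gave 0 under every alternative run. Replicate numbers did not pair the arrays (r of same-numbered deviations between -0.2 and 0.33, over 0.1 in 5 of 16 pairs, with the own number best in 4); with replicate number as a block, Gbp2 was lost and 1 gene stayed called for KO against WT under DEN, and the other counts of called genes were as before.

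The number of genes above 0 for the interaction (8 of 40) was 4 with normexp, 28 in the series table, 16 with slide as a block and 5 to 11 when 1 array was left out. For KO against WT under DEN + PB it was 9 in the series table in place of 29. That table has no scaling between arrays, and the median of all probes there was 0.372 in the interaction and -0.286 in the genotype contrast under DEN + PB; counted against that median, 9 and 25 of 40 genes lay above it, the same numbers as in the scaled data. For PB in KO its median was -0.295, and 37 of 40 lay above. In the wider lists, the 2 calls for PB in KO became 0 with normexp, slide as a block or only the arrays compared, the 3 for KO against WT under DEN became 0 with normexp and 1 with slide as a block, and the 7 under DEN + PB became 0 with normexp and 12 in the series table. Of 33 single differences with an unadjusted p under 0.05, followed over 8 alternatives and 16 left-out arrays, 1 changed sign: Nlrc5 for KO against WT under DEN was -0.36 with normexp, and the cause was not tested. Called probes overall dropped with normexp (63 in place of 420 for PB in KO), and no filter adds probes near background to the adjustment. Differences in genes near background (Nlrc5, Oas3) are limited by signal.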
